A study of Homo sapiens with 24 samples.

Results

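LPP, ZYX, TRIP6 and LIMD1 encode LIM proteins of the zyxin family, and their transcripts were followed in diffuse large B-cell lymphoma (DLBCL) lines after silencing of the transcription factor FOXP1. The members were all probes that carry one of these 4 gene names on the array. These were 5 of 41000 probes, or 4 of 30142 genes, with a pair of probes for LPP and a single probe for each of the others. LPP was selected on its ratios in these same arrays, namely its rise after FOXP1 silencing in the lines DB and K422, so its ratios are given as a description with no test. ZYX, TRIP6 and LIMD1 were chosen as its relatives and were tested.

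Proteins of the zyxin family have a proline-rich front part and LIM domains, zinc-binding folds that hold partner proteins, at their C-terminal end. They sit at focal adhesions and cell-cell contacts, where cells grip the matrix and each other through actin, and they also pass into the nucleus, where they can act as co-regulators of transcription. LPP (lipoma preferred partner) was named as a translocation partner in benign fat tumours, and its locus on chromosome 3 is also a known partner of the B-cell gene BCL6 in lymphoma translocations. FOXP1 is a forkhead transcription factor of B cells that can repress or activate its targets.

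Each of 24 two-colour arrays set RNA of FOXP1-silenced cells, in the Cy3 channel, against RNA of control cells, in the Cy5 channel. DB and K422 are DLBCL lines of the germinal-centre B-cell-like (GCB) subtype, and HBL-1 and OCI-Ly3 are lines of the activated B-cell-like (ABC) subtype, so that each subtype was represented by 2 lines. In each line siFOXP1 #1 and siFOXP1 #2, different duplexes against the same transcript, were delivered by electroporation (Nucleofection) and RNA was taken after 48 h, with 3 independent experiments each. The control cells were electroporated in the same way with siCtrl, a non-silencing duplex of low GC content, so every sample carried a duplex, and none was left untreated. The change was transient and no clone was selected.

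On all 24 arrays silenced cells had the same dye, so the effect of silencing and a bias between the dyes cannot be told apart within a line. The file headers name one version of the Feature Extraction software for DB and OCI-Ly3 and another for K422 and HBL-1. Each version thus held 1 line of each subtype. Between 57.2 and 64.4% of probes were well above background on an array. All 7 B-cell markers were above background in every line. CD10 (MME) was above background only in the GCB lines among the 4, and IRF4 and CCND2 only in the ABC lines. Most other subtype markers were above background in both subtypes. Of 7 GCB markers, 7 were so in DB and K422, 6 in OCI-Ly3 and 5 in HBL-1. Of 8 ABC markers, 8 were so in each ABC line and 6 in each GCB line. MYBL1, BCL6 and SERPINA9 were higher in both GCB lines than in both ABC lines. LMO2, S1PR2 and NEK6, also GCB markers, were higher in OCI-Ly3 than in DB. Of 7 fibroblast markers, 1 to 3 were above background in a line, and of 6 T-cell markers 3 were so in K422 and at most 1 in the other lines. FOXP1 itself was lower on 6 of 6 arrays in each line, with log2 ratios of -2.00 ± 0.79 in DB, -1.96 ± 0.54 in OCI-Ly3, -1.74 ± 0.55 in HBL-1 and -1.34 ± 0.47 in K422 (SD, n = 6 arrays). Its ratio with siFOXP1 #2 was lower than with #1 in all 4 lines (for example -2.7 against -1.3 in DB).

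The upstream sequence of LPP is shown because FOXP1 belongs to the forkhead factors, which are known to bind such letters. RefSeq windows around each annotated start (GRCh38.p14) take in up to 250 bases before it and a shorter stretch after it. The whole windows were searched on both strands for TGTTTAC, which reads GTAAACA on the opposite strand, and for TATTTAT and TATTTGT. Of 7 LPP windows, some of which overlap, 1 held a match. The part of this window before the start lies at chr3:188212462-188212711 on the plus strand and is printed here. The capitals mark TGTTTAC, whose first base is 170 bases before the start.
LPP upstream window: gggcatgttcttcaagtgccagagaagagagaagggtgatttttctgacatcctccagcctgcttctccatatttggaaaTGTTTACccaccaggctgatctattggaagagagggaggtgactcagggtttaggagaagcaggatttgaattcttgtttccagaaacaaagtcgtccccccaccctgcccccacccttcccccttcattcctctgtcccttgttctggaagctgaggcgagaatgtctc
Over 35116 windows of all genes, 3.42% held TGTTTAC, 4.93% TATTTAT, 3.5% TATTTGT and 10.9% any of them. The single windows of ZYX and TRIP6 held none of these letters. Such a match describes the letters of this window, and whether FOXP1 binds there was not tested.

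The probes of ZYX and TRIP6 are shown because they read the same stretch of a pair of relatives. Both lie in the coding part, over the last LIM domain. Across the 49 bases where they overlap, 33 are identical (67.3%), and the capitals mark these.
ZYX probe: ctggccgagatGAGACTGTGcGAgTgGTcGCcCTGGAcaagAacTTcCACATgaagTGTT
TRIP6 probe: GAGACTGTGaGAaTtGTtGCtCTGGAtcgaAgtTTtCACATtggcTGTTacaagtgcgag
On genome build hg18 the ZYX probe lies at chr7:142797122-142797181 and the TRIP6 probe at chr7:100308243-100308302. The brighter LPP probe lies at chr3:190074950-190075009 and the dimmer one at chr3:190078436-190078495. Their starts are 3486 bases apart both in the genome and in the LPP transcript, so no intron lies between them. The LIMD1 probe lies at chr3:45695969-45696028.

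LPP, which binds actin regulators at adhesions, was higher after FOXP1 silencing in every line on average, with a far higher ratio in the GCB lines than in the ABC lines. RNA came from whole cultures, so more cells with the transcript and more transcript per cell cannot be told apart. In K422 the log2 ratio of silenced over control cells on the brighter probe ranged from 1.94 to 2.3 with a median of 2.06, and its mean was 2.07 ± 0.13 (SD, n = 6), or 4.19-fold. In DB it ranged from 0.73 to 1.87 with a median of 1.38 and a mean of 1.37 ± 0.41, or 2.58-fold. Every array of K422 lay above every array of DB, HBL-1 and OCI-Ly3. In OCI-Ly3 the ratio ranged from 0.19 to 0.92 with a median of 0.53 and a mean of 0.54 ± 0.25, or 1.46-fold, and it was above 0 on 6 of 6 arrays. In HBL-1 it ranged from -0.084 to 0.51 with a median of 0.23 and a mean of 0.24 ± 0.21, or 1.18-fold, and it was above 0 on 5 of 6 arrays. DB and OCI-Ly3 overlapped, since the lowest DB array (0.73) was below the highest OCI-Ly3 array (0.92). Where the background was corrected by normexp and each array was centred on its median, the HBL-1 mean was -0.0078.

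**Figure D1:**
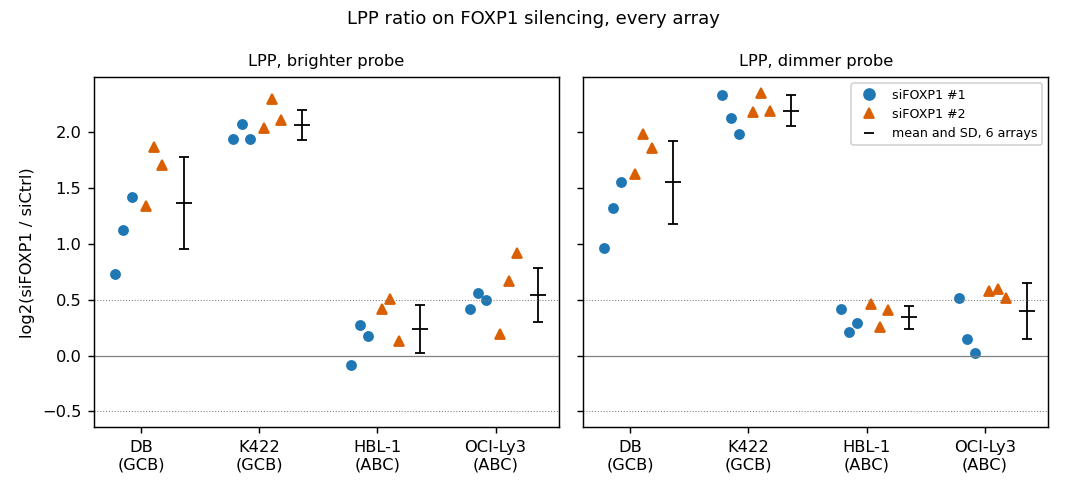
Log2 ratio of FOXP1-silenced over control cells for the brighter and the dimmer LPP probe, by line. Points are single arrays (6 per line), marked by siRNA, and bars are the mean and SD of 6 arrays. On both probes K422 is highest, with means of 2.07 and 2.19, and DB is second, with 1.37 and 1.55.

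The dimmer LPP probe gave the same picture. Its log2 ratio ranged from 1.98 to 2.35 in K422 with a median of 2.18 (mean 2.19 ± 0.14, 4.57-fold) and from 0.96 to 1.98 in DB with a median of 1.59 (mean 1.55 ± 0.37, 2.93-fold). In HBL-1 it ranged from 0.21 to 0.46 with a median of 0.35 (mean 0.34 ± 0.10) and in OCI-Ly3 from 0.022 to 0.6 with a median of 0.52 (mean 0.40 ± 0.25). On this probe all arrays were above 0, and the lowest GCB array (0.96) was above the highest ABC array (0.6). Both channels were well above background for both LPP probes on every array.

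Set against the whole array, the mean ratio of LPP ranked 8 of 30142 genes in DB and 16 of 30139 in K422, counted from the highest, while in OCI-Ly3 it ranked 955 of 30141 and in HBL-1 5892 of 30140. These ranks follow from the choice of LPP and were not tested. The ratio was 0.82 lower on the log2 scale in OCI-Ly3 than in DB, which shared a software version, and 1.83 lower in HBL-1 than in K422, which shared the other. Averaged, the ABC lines were 1.33 below the GCB lines, and this value lay between -1.42 and -1.21 under all alternatives run.

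Both siRNAs gave a positive LPP mean in each line. In K422 the log2 ratio was 1.98 with siFOXP1 #1 and 2.15 with #2, in DB 1.09 and 1.64, in OCI-Ly3 0.50 and 0.59, and in HBL-1 0.12 and 0.35. The mean was thus higher with #2, the siRNA with the lower FOXP1 ratio, in all 4 lines. The arrays of #1 and #2 with the same replicate number name the same control in the labels, so these ratios share control samples. The choice of LPP did not rest on the difference between the siRNAs, so this difference was tested. By limma it was 0.55 in DB (SE 0.19, Benjamini-Hochberg adjusted p = 0.267), 0.23 in HBL-1, 0.17 in K422 and 0.098 in OCI-Ly3, so the siRNAs were not told apart for LPP in any line. None of the 4 members was called in this comparison, where genes were called at a log2 difference of 0.5 or more (1.41-fold) in either direction with an adjusted p below 0.05. Of all genes, 0.113% were called higher and 0.189% lower with #2 in DB, 0.129% and 0.063% in OCI-Ly3, 0.0597% and 0.0995% in K422, and 0.0929% and 0.0796% in HBL-1.

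ZYX encodes zyxin, which brings VASP and its relatives to actin at adhesions and stress fibres. Unlike LPP, it had its highest mean ratios in the ABC lines. In OCI-Ly3 its log2 ratio ranged from 0.34 to 0.81 with a median of 0.74, and its mean of 0.68 ± 0.18 (1.61-fold) passed the test (limma, adjusted p = 0.000943). In HBL-1 it ranged from 0.29 to 0.76 with a median of 0.49, and its mean of 0.51 ± 0.15 (1.42-fold, SE 0.13) also passed (adjusted p = 0.00449). ZYX was thus called higher in both ABC lines, where 2.8% of all genes in OCI-Ly3 and 5.73% in HBL-1 were called higher, and 1.62% and 4.17% lower. The HBL-1 call lay close to the size limit. It was lost without replicate 1 (0.50, adjusted p = 0.0416) or replicate 3 (0.46, adjusted p = 0.0494), with siFOXP1 #1 alone (0.51, adjusted p = 0.062), and with normexp and median centring (0.28, adjusted p = 0.0956).

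In K422 the ZYX ratio ranged from 0.19 to 0.6 with a median of 0.40, and the mean of 0.40 ± 0.14 (adjusted p = 0.0342) stayed under the size limit. With the replicate number as a block, its adjusted p was 0.071. In K422, HBL-1 and OCI-Ly3 all 6 arrays were above 0 and the ranges of the lines overlapped. In DB the ratio ranged from -0.5 to 1.09 with a median of 0.19 (mean 0.25 ± 0.59, adjusted p = 0.252). There the ZYX probe was near background, well above it on 1 of 6 arrays in the control channel and on 3 of 6 in the silenced channel. The differences in ratio between lines were not past the threshold. They were 0.44 for OCI-Ly3 minus DB (adjusted p = 0.267), 0.11 for HBL-1 minus K422 (adjusted p = 0.812) and 0.27 for ABC minus GCB (SE 0.13, adjusted p = 0.229). Without DB replicate 3 the OCI-Ly3 minus DB difference was 0.68 (adjusted p = 0.0145), and with normexp and loess it was 0.70 (adjusted p = 1.5e-05). Among all genes, 1.4% had a higher and 0.866% a lower ratio in ABC than in GCB lines, 0.965% and 0.461% in OCI-Ly3 than in DB, and 2.31% and 2.03% in HBL-1 than in K422, and no tested member was among them.

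TRIP6, a zyxin relative that binds signalling proteins as well as actin partners, had ratios close to 0. Its log2 ratio ranged from -0.28 to -0.12 in K422 with a median of -0.17 (mean -0.18 ± 0.06, adjusted p = 0.00742) and from -0.51 to 0.02 in DB with a median of -0.097 (mean -0.15 ± 0.19, adjusted p = 0.0437). With the replicate number as a block, the adjusted p was 0.0135 in K422 and 0.0711 in DB. Both means were under the size limit, so neither TRIP6 nor ZYX was called in these lines, where 1.33% (DB) and 2.34% (K422) of all genes were called higher and 0.829% and 2.1% lower. In OCI-Ly3 it ranged from -0.21 to -0.058 with a median of -0.066 (mean -0.093 ± 0.061, adjusted p = 0.185) and in HBL-1 from -0.17 to 0.16 with a median of -0.072 (mean -0.047 ± 0.14, adjusted p = 0.533). TRIP6 lay below 0 on all 6 arrays of K422 and OCI-Ly3. In HBL-1 the 2 siRNAs lay apart, at -0.16 ± 0.016 with #1 and 0.069 ± 0.079 with #2 (n = 3 each), which was not past the threshold. The line differences of TRIP6 were 0.053 (OCI-Ly3 minus DB, adjusted p = 0.806), 0.14 (HBL-1 minus K422, adjusted p = 0.22) and 0.095 (ABC minus GCB, adjusted p = 0.244).

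LIMD1 is a family member known as a scaffold in Hippo signalling, in oxygen sensing and in silencing by microRNAs. In DB and K422 its probe was not well above background in either channel on any array, so no ratio is given there. In OCI-Ly3 its log2 ratio ranged from -0.034 to 0.3 with a median of 0.16 (mean 0.13 ± 0.12, adjusted p = 0.78) and in HBL-1 from -0.64 to 0.99 with a median of -0.23 (mean -0.084 ± 0.60, adjusted p = 0.913). LIMD1 was not called in a line where it was measured, and its HBL-1 arrays fell on both sides of 0.

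**Figure D2:**
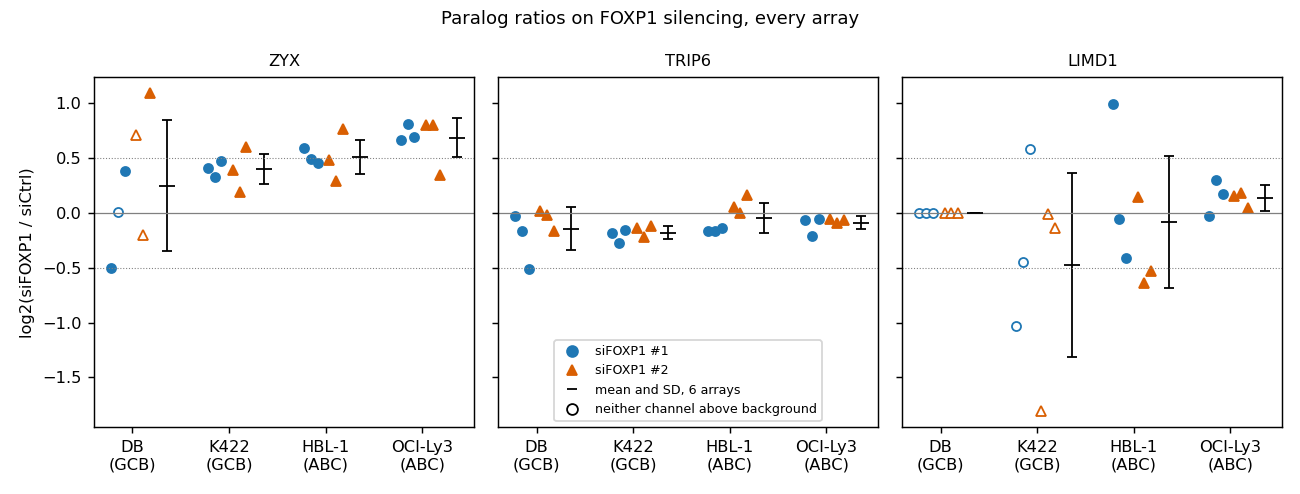
Log2 ratio of FOXP1-silenced over control cells for ZYX, TRIP6 and LIMD1, by line, with dotted lines at the size limit of ±0.5. Points are single arrays, open where neither channel was well above background, and bars are the mean and SD of 6 arrays. ZYX is above 0 on all arrays of K422, HBL-1 and OCI-Ly3, and TRIP6 has means between -0.18 and -0.047.

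Over the 24 arrays the ratios of the relatives did not run with those of LPP. Pearson's r with LPP was -0.23 for ZYX, -0.39 for TRIP6 and -0.33 for LIMD1, which describes 24 arrays that share 4 lines and their control samples. The LIMD1 value includes DB and K422, where its probe was not measured above background, so nothing is read from it. The ZYX value includes DB, where its probe was near background. Of 17828 genes measured on at least 12 arrays and outside the lists used here, those whose ratios ran closest to LPP were PHF6 (r = 0.895), NAB1 (0.884), VCPIP1 (0.883), PVT1 (0.87) and GTF2A1 (0.864). Their ratios were small beside those of LPP. PHF6, a chromatin protein, had mean log2 ratios of 0.15 in K422, -0.13 in DB, -0.27 in OCI-Ly3 and -0.38 in HBL-1, so it shared the order of the lines with LPP but its size in none. NAB1, a co-regulator of EGR factors, was at 0.16, 0.036, -0.43 and -0.48 in the same order. Within a line (6 arrays) the r of NAB1 with LPP ran from -0.2 in HBL-1 to 0.8 in DB, and that of PHF6 from 0.37 in HBL-1 to 0.7 in DB.

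The levels of the members without silencing were read from the control channel, as log2 signal relative to the 75th percentile of each array, with 3 control samples per line. These levels are also the denominator of the ratios above. On the brighter probe LPP was highest in K422 (0.79, 0.64 and 0.78, mean 0.73 ± 0.084). It was at -1.09 ± 0.22 in OCI-Ly3 (-0.85, -1.28 and -1.13) and at -1.16 ± 0.078 in DB (-1.07, -1.21 and -1.20). HBL-1 was lowest, with -1.66, -1.91 and -2.25 (mean -1.94 ± 0.30). K422, the line with the highest LPP ratio, thus also had the highest control level, and no sample of another line reached it. Of the 7 fibroblast markers, DCN, a matrix gene, was at 5.69 in K422 and 2.45 in DB and near background in the ABC lines. The other markers had other orders: THY1 was above background in all 4 lines (0.34 in K422, 0.25 in HBL-1, -0.24 in DB and -0.27 in OCI-Ly3), LUM in DB alone, and PDGFRB was highest in OCI-Ly3 (-4.29), while the collagens COL1A1, COL1A2 and COL3A1 were near background in all 4. The summed level of that list was 5.73 in K422 and 2.68 in DB, against -0.088 in OCI-Ly3 and 0.32 in HBL-1, with DCN making up most of the K422 sum, none of its 7 genes was called on silencing in K422, DB or HBL-1, and its part in the LPP level was not tested. HBL-1 was 6.4-fold below K422 (difference -2.68, limma adjusted p = 1.57e-07), and LPP was called lower there, as were 20.7% of all genes, with 18.4% called higher. OCI-Ly3 and DB did not differ beyond their spread (0.074, SE 0.16, adjusted p = 0.815), in a comparison that called 20.7% of genes higher and 17.5% lower. ABC minus GCB was -1.3 (2.46-fold lower, SE 0.12, adjusted p = 2.72e-06), where 19.4% of genes were higher and 18% lower. This value averages the pairs at -2.68 and 0.074. Its p-value measures the spread within lines and not between lines of a subtype.

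The dimmer LPP probe ordered the lines in another way. It was at -0.45 ± 0.027 in DB (-0.44, -0.47 and -0.42) and at -0.052 ± 0.25 in K422 (-0.17, -0.23 and 0.24). It was at -3.4 ± 0.2 in HBL-1 (-3.48, -3.18 and -3.55) and at -3.65 in all 3 samples of OCI-Ly3. Both GCB lines thus lay far above both ABC lines on this probe. OCI-Ly3 was 9.22-fold below DB (difference -3.2, SE 0.15, adjusted p = 1.02e-08 over all probes) and HBL-1 was 10.2-fold below K422 (adjusted p = 8.14e-09). ABC minus GCB was -3.28 (9.71-fold lower, adjusted p = 3.73e-10, again by the spread within lines). Over all probes, OCI-Ly3 against DB called 21.2% higher and 18.8% lower, HBL-1 against K422 19% and 20.8%, and ABC against GCB 19.9% and 18.9%. So the LPP probes, which lie in the same transcript without an intron between them, differed on whether the LPP level of OCI-Ly3 was below that of DB. The mean of both probes gave -1.57 for OCI-Ly3 minus DB (adjusted p = 2.05e-06). This disagreement was singled out after the values were seen, and its cause was not tested.

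Pairs of lines across the software versions also carry any difference that goes with the version. On the brighter probe K422 was 3.72-fold above DB (1.89, adjusted p = 2.74e-06, with 23.9% of genes called higher and 21% lower) and OCI-Ly3 was 1.81-fold above HBL-1 (0.86, adjusted p = 0.00128, with 23.4% higher and 19.4% lower). HBL-1 was below DB by -0.78 (adjusted p = 0.00194, with 23.4% higher and 24% lower), and OCI-Ly3 was below K422 by -1.82 (adjusted p = 3.17e-06, with 23.4% higher and 23% lower). On the dimmer probe OCI-Ly3 minus HBL-1 was -0.24 (adjusted p = 0.182) and K422 minus DB was 0.39 (adjusted p = 0.0425, under the size limit), so neither pair was called, while over all probes 23.5% were higher and 19.8% lower in the former pair and 23.5% and 21.9% in the latter. HBL-1 minus DB (-2.96) and OCI-Ly3 minus K422 (-3.6) were called lower on this probe too, as were 24.9% and 23.2% of all probes, with 23.5% and 24.1% higher.

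**Figure D3:**
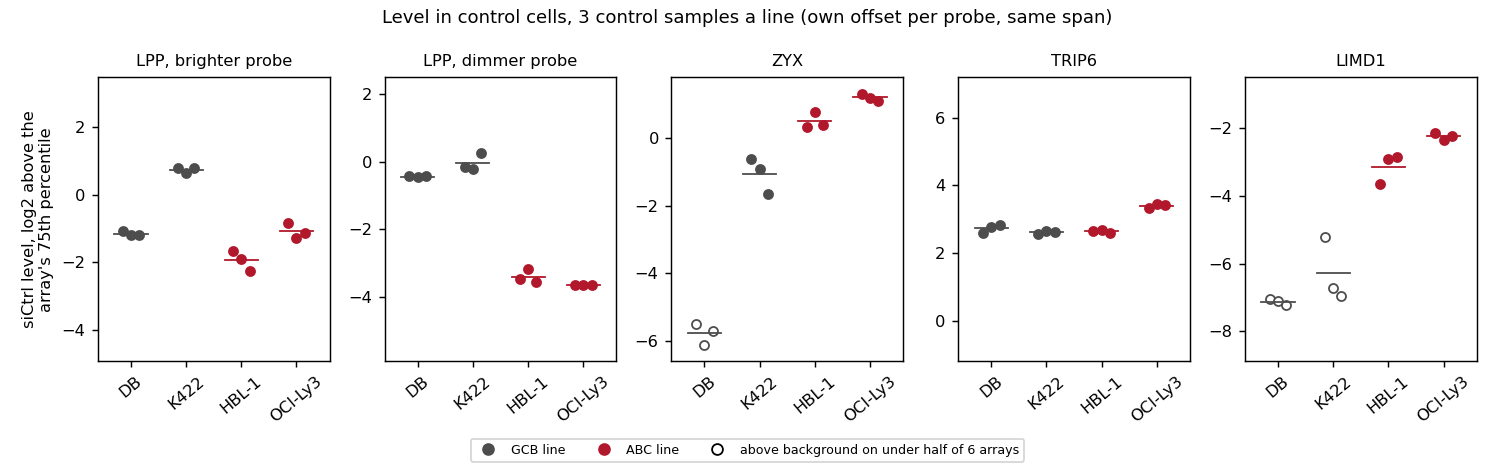
Level in control cells, as log2 Cy5 signal relative to the 75th percentile of the array, for each member probe and line. Points are control samples (3 per line), open where the probe was well above background on fewer than 3 of the 6 arrays, and bars are the mean. The LPP probes both show K422 at the top but place OCI-Ly3 differently against DB, and ZYX and LIMD1 are lowest in the GCB lines.

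ZYX had its higher control levels in the ABC lines. It was highest in OCI-Ly3 (1.31, 1.19 and 1.1, mean 1.2 ± 0.10), followed by HBL-1 (0.32, 0.77 and 0.39, mean 0.49 ± 0.25) and K422 (-0.61, -0.91 and -1.66, mean -1.06 ± 0.54). In DB it was at -5.77 ± 0.31, and well above background on 1 of 6 arrays. The ABC samples did not overlap with the GCB samples. HBL-1 was 2.93-fold above K422 (1.55, SE 0.26, adjusted p = 0.000453). By limma on the measured levels, OCI-Ly3 minus DB was 6.97 (adjusted p = 1.93e-09), which takes in signals near background in DB. As a bound after loess and between-array scaling, OCI-Ly3 was at least 12.2-fold above DB. Its DB side equalled the measured signal of the probe (6.86), which was near background. This bound is open to dye bias and was not tested. OCI-Ly3 minus HBL-1 was 0.71 (1.63-fold, adjusted p = 0.0424), which was no longer past the threshold with the replicate number as a block (adjusted p = 0.15) and lay between 0.62 and 0.85 when single replicates were left out, with the call lost in 7 of 12 such fits.

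TRIP6 differed less between the lines. It was at 3.4 ± 0.058 in OCI-Ly3 (3.33, 3.44 and 3.42), 2.73 ± 0.12 in DB, 2.63 ± 0.038 in HBL-1 and 2.61 ± 0.051 in K422. OCI-Ly3 stood above the other lines, 1.59-fold above DB (0.67, SE 0.10, adjusted p = 0.000277) and 0.77 above HBL-1 on the log2 scale (adjusted p = 0.00011). The other lines did not differ beyond their spread, with 0.025 for HBL-1 minus K422 (adjusted p = 0.937), -0.095 for HBL-1 minus DB (adjusted p = 0.456) and -0.12 for K422 minus DB (adjusted p = 0.358). After loess and between-array scaling of normexp-corrected signals the OCI-Ly3 minus DB difference was 0.43 (adjusted p = 0.000118), under the size limit.

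LIMD1 was measured in control cells of the ABC lines, at -2.23 ± 0.11 in OCI-Ly3 (-2.14, -2.35 and -2.21) and -3.13 ± 0.44 in HBL-1 (-3.63, -2.91 and -2.84). In DB and K422 it was not well above background on any array. By limma on the measured levels, OCI-Ly3 minus DB was 4.89 (adjusted p = 1.12e-06) and HBL-1 minus K422 was 3.16 (adjusted p = 4.51e-05). These differences take in signals at background in DB and K422. As bounds set by the background, which were not tested, OCI-Ly3 was at least 2.36-fold above DB and HBL-1 at least 1.53-fold above K422. With normexp-corrected signals these calls were lost (1.17, adjusted p = 0.203, and 1.02, adjusted p = 0.307). OCI-Ly3 minus HBL-1 was 0.90 (adjusted p = 0.0777), not past the threshold, but it was called with the replicate number as a block (0.90, adjusted p = 0.027).

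The transcripts around LPP were examined because BCL6 lies near it on chromosome 3. Positions are in kb from the brighter LPP probe, negative towards BCL6. Among 38 listed genes or transcripts within 2 Mb, the calls of higher ratios were 13 in K422, 3 in OCI-Ly3, 9 in DB and 8 in HBL-1, where 4 were also called lower. The region was chosen for the rise of LPP, so nothing is read from these counts. Those called higher in both GCB lines included 8 unnamed transcripts between -627 and 15.6 kb. Their mean log2 ratios ran from 1.06 to 2.18 in DB and from 1.28 to 2.39 in K422. The transcript AK055214, at 15.6 kb, had ratios of 2.39 ± 0.16 in K422 and 1.61 ± 0.41 in DB, close to those of LPP, against 0.25 ± 0.22 in OCI-Ly3 and 0.54 ± 0.28 in HBL-1. AL080232, at -627 kb, was at 2.18 ± 0.46 in DB and 2.26 ± 0.30 in K422, against 0.63 ± 0.84 in HBL-1 and 0.44 ± 0.55 in OCI-Ly3. THC2535753, at 6.26 kb, differed from LPP in that it was as high in HBL-1 (1.66) as in DB (1.59) and K422 (1.28). Whether these probes read the LPP transcript itself was not tested.

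Named genes further from LPP had other ratios. BCL6, a repressor of germinal-centre B cells, at -1150 kb, was called in no line, with log2 ratios of 0.44 ± 0.065 in HBL-1, 0.31 ± 0.28 in OCI-Ly3, 0.10 ± 0.15 in K422 and -0.017 ± 0.24 in DB. TP63, a relative of p53, at 1020 kb, was at 1.75 ± 0.72 in HBL-1, -0.02 ± 0.049 in K422, 0.51 ± 0.68 in DB and 0.50 ± 0.26 in OCI-Ly3, and its probe was well above background on 1 of 6 arrays in each GCB line. TPRG1, at 446 kb, was at 1.82 ± 0.91 in K422 and -0.43 ± 0.14 in OCI-Ly3.

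**Figure D4:**
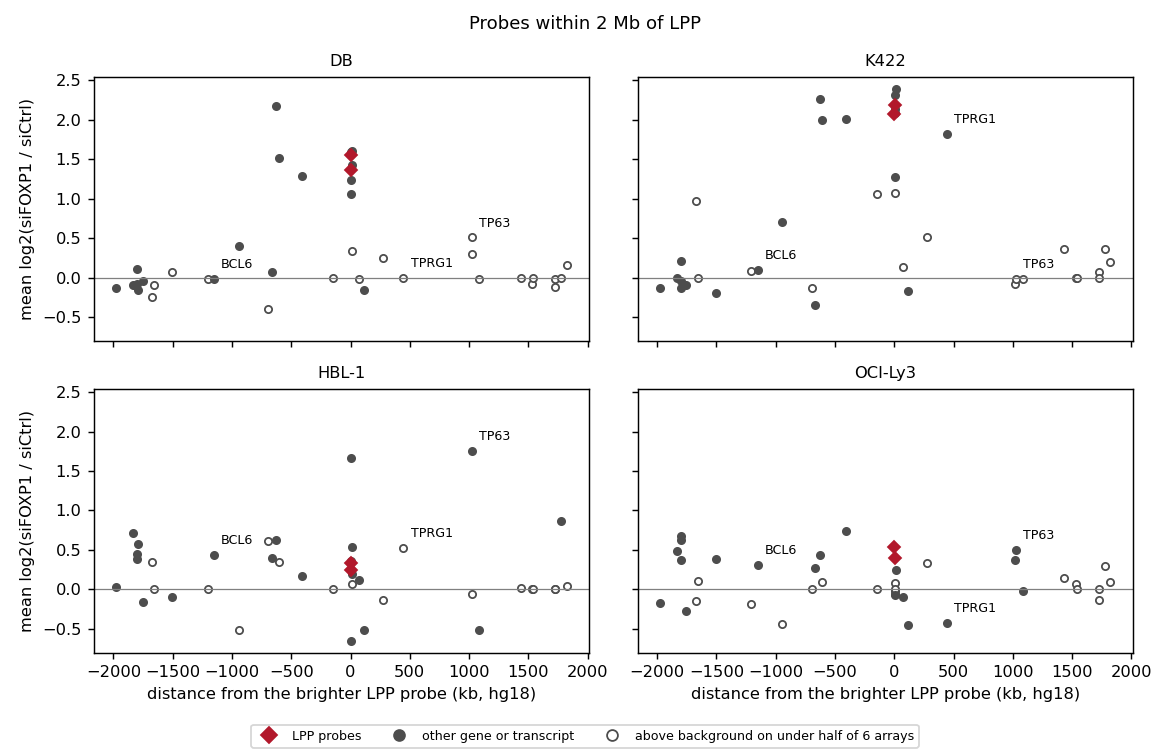
Mean log2 ratio of FOXP1-silenced over control cells for LPP and for listed transcripts within 2 Mb of its brighter probe, by distance in kb, with 1 panel per line. Points are means of 6 arrays, open where the probe was well above background on only a minority of them, with a solid line at 0. In DB and K422 LPP (1.37 and 2.07) stands among unnamed transcripts of like ratio, while BCL6 (-0.017 and 0.10) stays near 0.

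Other genes of the adhesion machinery were taken as lists, described here by the same call in each line, with the median ratio of all genes at 0. Beside the counts below, 1.33% of all genes were called higher and 0.829% lower in DB, and 2.34% and 2.1% in K422. In HBL-1 these shares were 5.73% and 4.17%, and in OCI-Ly3 2.8% and 1.62%. Of the other zyxin family members, AJUBA (listed as JUB) and FBLIM1 were found, and neither was called in any line. JUB was at 0.066 in K422, 0.11 in DB, 0.092 in OCI-Ly3 and -0.16 in HBL-1. FBLIM1, a filamin-binding member, had negative means in DB (-0.25), K422 (-0.074) and OCI-Ly3 (-0.32).

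Of 15 partners of zyxin proteins at adhesions, none was called in DB or K422, 1 rose and 2 fell in HBL-1, and 1 rose in OCI-Ly3, with medians of 0.14, 0.015, -0.17 and 0.078 in the order DB, K422, HBL-1 and OCI-Ly3. Ena/VASP proteins lengthen actin filaments and bind LPP and zyxin. Of these, in HBL-1 EVL rose (0.95 ± 0.21, adjusted p = 1.53e-05) and ENAH fell (-0.93 ± 0.22, adjusted p = 6.8e-05), while in OCI-Ly3 VASP rose (0.62 ± 0.077, adjusted p = 3.78e-07) together with its partner ZYX. SSX2IP, a protein of cell junctions, fell in HBL-1 (-0.62 ± 0.25, adjusted p = 9.44e-05).

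Of 28 genes of the focal adhesion core, 5 rose in HBL-1, 4 in K422, 3 in OCI-Ly3 and 1 in DB, and none fell, with medians of 0.18, 0.077, 0.062 and 0.05. PTK2B, an adhesion kinase of blood cells, rose in DB (0.70 ± 0.18, adjusted p = 7.1e-06), K422 (0.70 ± 0.16) and HBL-1 (0.60 ± 0.20), and was at 0.49 in OCI-Ly3. ILK, the integrin-linked kinase, rose in K422 (0.51 ± 0.11), HBL-1 (0.90 ± 0.18, adjusted p = 3.14e-09) and OCI-Ly3 (0.72 ± 0.10), and PARVG, its partner in blood cells, rose in the same lines (0.70 ± 0.88, 0.74 ± 0.17 and 0.74 ± 0.33). PTK2, the focal adhesion kinase, rose in HBL-1 (0.98 ± 0.25, adjusted p = 7.92e-06) and TNS3, a tensin, in OCI-Ly3 (0.84 ± 0.11, adjusted p = 0.00213). The remaining gene called in K422, TNS1 (0.79 ± 0.75), had a probe well above background on only 2 of 6 arrays. In DB and K422 these ratios stayed below that of LPP, which was chosen for its rise there, so nothing is read from this. In HBL-1 and OCI-Ly3 the LPP means were 0.24 and 0.54. The genes called there lay above them, but a call itself needs 0.5 or more, so nothing is read from this either.

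Of 28 other LIM domain genes of the cytoskeleton, none was called in DB, 2 fell in K422, 5 rose and 4 fell in HBL-1, and 1 rose and 1 fell in OCI-Ly3, with medians of 0, 0.0017, 0.062 and 0.066. In HBL-1 LIMK1, a kinase of the actin regulator cofilin, rose (0.95 ± 0.20, adjusted p = 1.4e-07), while LIMA1, an actin-bundling protein, fell (-0.84 ± 0.44, adjusted p = 2.09e-06) and CSRP2 fell (-1.09 ± 0.31, adjusted p = 2.05e-05). CSRP2 also fell in K422 (-0.60 ± 0.44, adjusted p = 0.00803), where the other gene called, FHL2 (-0.56 ± 0.70), was not well above background on any array. Of the 124 listed genes in all, including the lists of LIMD1 partners described further on, 14 rose and 8 fell in HBL-1, which is 11.3% and 6.45% of them beside 5.73% and 4.17% of all genes. With normexp these counts were 4 and 0 after loess, and 3 rose with median centring. In OCI-Ly3 8 rose and 1 fell (6.45% and 0.806% of them, beside 2.8% and 1.62% of all genes), against 3 and 0 with normexp and loess. In K422 5 rose and 3 fell (4.03% and 2.42%, beside 2.34% and 2.1%), against 1 and 0 with normexp and loess. In DB 3 rose and 0 fell (2.42% and 0%, beside 1.33% and 0.829%), and none rose with normexp and median centring.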

How the data were processed

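The authors scanned each array and deposited the Feature Extraction output (versions 10.5.1.1 and 10.7.3.1 per the file headers), with the processed intensity of each channel and a log10 ratio (Cy5 over Cy3), both background-subtracted and dye-normalised by a linear and a loess step. A table of log2 ratios of the same arrays, also deposited, was used as an alternative. Other deposited columns (gene names, hg18 positions and flags) were used as given. The ratio was turned to log2 of silenced over control, dropping control spots and those with an outlier flag. Repeat spots were averaged per probe, and the brightest probe stood for a gene. Tests used limma 3.58.1 (R 4.3.3) with a mean for each of 8 combinations of line and siRNA and Benjamini-Hochberg adjustment over all genes (over all probes for the dimmer LPP probe). Genes were called at an absolute log2 value of 0.5 or more with an adjusted p below 0.05.

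For control levels, log2 intensity relative to the 75th percentile was averaged over the arrays of siFOXP1 #1 and #2 that share a replicate number, giving 12 control samples. Bounds for dim probes were taken after loess and between-array scaling. They set the bright mean against the lowest well-measured signal of each array, or against the probe's own signal where that was higher. The number of arrays limits the precision. The p-values of control levels measure the spread between these samples, which the series describes as independent experiments. The p-values of ratios take the 6 arrays of a line as independent, though they come from 3 experiments. No p-value of ABC minus GCB, for levels or for ratios, measures the spread between lines of a subtype. Slides held 4 arrays each. The labels give both arrays of a replicate the same control, and deviations of such pairs correlated at 0.0467 to 0.284 over all genes and 0.115 to 0.574 over well-measured genes.

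The named genes were the members, FOXP1, listed genes called in a line (6 at most per list), transcripts near LPP, and the 5 genes whose ratios ran closest to it. The members and lists were chosen with earlier results of these data known. The fits were tested on simulated data. Alternatives were normexp background correction with loess or median centring, the deposited log2 table, the mean over probes, each siRNA alone, slide or replicate blocks, filters on dim probes, and leaving out replicates.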

Additional observations from a re-analysis of the deposited data

Results flagged for a closer look

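In 17 sets of 6 arrays in which a member was measured, 3 sets held 1 array far from the other 5. In OCI-Ly3 the ZYX ratio with siFOXP1 #2 in replicate 3 was 0.34, against 0.66 to 0.81 on the others. In DB the TRIP6 ratio with siFOXP1 #1 in replicate 3 was -0.51, against -0.17 to 0.02. In OCI-Ly3 the TRIP6 ratio with siFOXP1 #1 in replicate 2 was -0.21, against -0.091 to -0.058. Chance gives such a gap in about 1 of 20 sets.

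Some listed genes differed in their log2 ratio between lines by limma's test of the difference itself. For ABC minus GCB this test uses the spread within lines and not between lines of a subtype. EVL, an actin regulator, was higher in HBL-1 than in K422 by 1.28 (adjusted p = 0.000154) and in ABC than in GCB lines by 0.74 (adjusted p = 0.00117), while OCI-Ly3 minus DB was 0.21 (adjusted p = 0.691). PTK2 was higher in HBL-1 than in K422 by 0.82 (adjusted p = 0.00551) and in ABC than in GCB lines by 0.51 (adjusted p = 0.0153), while OCI-Ly3 minus DB was 0.19 (adjusted p = 0.703). TNS3 was higher in ABC than in GCB lines by 0.60 (adjusted p = 0.0398), but neither pair of lines passed alone, at 0.84 for OCI-Ly3 minus DB (adjusted p = 0.0842) and 0.36 for HBL-1 minus K422 (adjusted p = 0.448). LIMK1 was higher in HBL-1 than in K422 by 0.56 (adjusted p = 0.00443), and LIMA1 differed by -0.85 (adjusted p = 0.000366), while OCI-Ly3 minus DB was -0.17 (adjusted p = 0.603) for LIMK1 and 0.34 (adjusted p = 0.221) for LIMA1. TEAD4 was higher in HBL-1 than in K422 by 0.88 (adjusted p = 6.27e-07), where it fell in K422, and OCI-Ly3 minus DB was -0.092 (adjusted p = 0.661). FRMD6 was higher in OCI-Ly3 than in DB by 1.31 (adjusted p = 0.00822), and HBL-1 minus K422 was 0.067 (adjusted p = 0.965) with neither of those lines measured.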

How the results depend on the processing

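For 70 results, 1494 alternative values were computed, of which 1428 counted as unchanged, and 31 values that were not called changed sign. For tested results, unchanged means on the same side of the threshold. The LPP silencing ratios and the counts of listed genes were not tested and have no such threshold. For example, the LPP ratio in DB counted as unchanged at 1.04 with normexp and median centring, against 1.37. With normexp and median centring the LPP ratio was 1.81 in K422 and -0.0078 in HBL-1. The ZYX ratio in HBL-1 was 0.28 there (adjusted p = 0.0956), 0.50 with the slide as a block (adjusted p = 0.0164, just under the size limit), 0.51 with siFOXP1 #1 alone (adjusted p = 0.062) and 0.46 to 0.57 with single replicates left out. The ZYX ratio difference OCI-Ly3 minus DB became called with normexp and loess (0.70) and ran from 0.26 to 0.68 with replicates left out. The LPP control level in OCI-Ly3 minus DB, 0.074 on the brighter probe, was -1.57 over the mean of probes and -3.2 on the dimmer probe, and OCI-Ly3 minus HBL-1 was -0.24 on the dimmer probe. The TRIP6 control difference OCI-Ly3 minus DB was 0.43 after loess and between-array scaling. With normexp the LIMD1 control differences were 1.17 (OCI-Ly3 minus DB, adjusted p = 0.203), 1.02 (HBL-1 minus K422, adjusted p = 0.307) and 1.1 (ABC minus GCB, adjusted p = 0.0674).

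Counts of listed genes moved under several settings. In DB 3 genes rose, against 0 with median centring, 1 over the mean of probes and 2 to 5 with replicates left out (5 without DB replicate 1), and 0 fell, against 1 with siFOXP1 #1 alone and 3 with #2 alone. In K422 5 rose, against 1 with loess, 0 with median centring, 2 over the mean of probes, 2 with #2 alone and 2 to 7 with replicates left out (2 without K422 replicate 3). In K422 3 fell, against 0 with loess and 1 to 5 with replicates left out (5 without K422 replicate 2, 1 without replicate 3). In HBL-1 14 rose, against 4 with loess and 3 with median centring, and 8 fell, against 0 with loess. In OCI-Ly3 8 rose, against 3 with loess, 2 with median centring, 13 with #1 alone and 5 with #2 alone. In OCI-Ly3 1 fell, against 0 with loess, 0 with median centring, 2 with #1 alone, 2 with #2 alone and 0 to 2 with replicates left out (2 without OCI-Ly3 replicate 2, 0 without replicate 3). The cause was not tested.

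With the replicate number as a block, control levels changed their call for ZYX in OCI-Ly3 minus HBL-1 (0.71, adjusted p = 0.15) and for LIMD1 in K422 minus DB (0.83, adjusted p = 0.0388) and OCI-Ly3 minus HBL-1 (0.90, adjusted p = 0.027), and no call of a silencing ratio changed. The 2 GCB levels of LIMD1 and the DB level of ZYX were limited by signal over background.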

Other observations

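LIMD1 and its relatives are known as scaffolds outside adhesions, and their genes were taken as lists. The shares of all genes called higher and lower were 1.33% and 0.829% in DB, 2.34% and 2.1% in K422, 2.8% and 1.62% in OCI-Ly3, and 5.73% and 4.17% in HBL-1. Of 21 Hippo pathway genes, none was called in DB, 1 rose and 1 fell in K422, 1 rose and 1 fell in HBL-1, and 2 rose in OCI-Ly3, with median log2 ratios of 0.068 in OCI-Ly3, 0 in DB, -0.011 in K422 and -0.14 in HBL-1. TEAD4, a DNA-binding factor at the end of the pathway, fell in K422 (-1.24 ± 0.18, limma adjusted p = 1.68e-10), where VGLL4, which binds TEAD factors, rose (0.55 ± 0.17, adjusted p = 3.96e-07). FRMD6 rose in OCI-Ly3 (1.1 ± 0.15, adjusted p = 0.000397), where the other gene called, WWTR1 (0.71 ± 0.74), was near background on all 6 arrays. Of 10 Hippo target genes, none was called in DB, K422 or OCI-Ly3, and 1 rose and 2 fell in HBL-1. The ones that fell, AMOTL2 (-0.71 ± 0.49, also the Hippo pathway gene that fell there) and F3 (-1.06 ± 0.87), had probes near background on all 6 arrays, while LATS2 (0.83 ± 0.63) was measured on all 6.

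Of 13 genes of microRNA silencing, 2 rose in DB, and 1 each in HBL-1 and OCI-Ly3, and none fell. TNRC6B, a partner of Argonaute proteins, rose in DB (0.67 ± 0.47, adjusted p = 0.00172), in HBL-1 (0.57 ± 0.31, adjusted p = 0.0017) and OCI-Ly3 (0.50 ± 0.16, adjusted p = 0.00848), and was at 0.35 in K422. DDX6, an RNA helicase, rose in DB (0.50 ± 0.32, adjusted p = 0.0228). Of 10 genes of oxygen sensing, 1 rose, in HBL-1. This was EGLN3, at 0.91 ± 0.44 (adjusted p = 0.0097), whose probe stayed near background on all 6 arrays.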
